A study of Mus musculus with 7 samples.

Results

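The smooth muscle contractile genes are a set of 32 genes for the filaments, regulators, linkers, calcium-handling proteins and transcriptional coactivator of contractile smooth muscle. They were taken as a fixed list of gene symbols. All 32 were measured, out of 19938 genes with a probe set that names a single symbol, and the probe set with the highest mean over the 7 arrays was read for each gene. RNA from mouse intestine was hybridised to 1-colour Affymetrix arrays, 1 array per sample. The mice were wild-type (WT, 3 arrays) or Atg4b knock-out (KO, 4 arrays), of strain C57Bl6/129Sv and 3 months old. Untreated mice gave 1 array per genotype from ileum and 1 per genotype from colon. Treated mice drank dextran sulfate sodium (DSS) for 7 days and water for 3 days after it, and their colons gave 2 KO arrays and 1 WT array. DSS is a polymer used to induce colitis through damage to the epithelium, and Atg4b encodes a protease needed to process the LC3 family proteins of autophagosomes.

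The muscle coat of the gut consists of circular and longitudinal smooth muscle outside the mucosa, with a thin muscularis mucosae below the crypts. Contraction starts when calcium-bound calmodulin activates myosin light chain kinase, which phosphorylates the regulatory light chain so that myosin pulls on actin filaments. These filaments are anchored to dense bodies and to adhesion sites at the membrane. Most of the genes are driven by serum response factor with its coactivator myocardin, through a promoter element known as the CArG box.

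Values are log2 of the deposited intensity, and ± is the standard error of the limma fit. A gene is said to have risen or fallen where its Benjamini-Hochberg adjusted p over all genes was under 0.05. The levels of different genes are read by different probe sets and are not compared with each other. Median intensities lay between 121.4 and 126.45 on the 7 arrays. Atg4b stood at 7.35 to 7.72 in WT and 5.39 to 5.45 in KO arrays. Xist and Eif2s3y gave a female pattern in all 3 DSS arrays and a male pattern in the 4 control arrays. The DSS effect therefore cannot be told apart from sex as measured. The pattern went against the labelled sex in 3 arrays, and these were the 3 WT arrays. The 7 ileum markers and 7 colon markers separated control ileum from control colon as labelled, though the lists were chosen with earlier results of these data known. Of 6 groups 5 held a single array, and nothing in the labels says whether ileum and colon came from the same mouse or each array from a separate one, so the p-values rest on the spread among the arrays alone, which may be technical.

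Smooth muscle genes were lower in DSS colon than in control colon, to a degree that differed between the 3 DSS arrays. The median difference of the 32 genes from the mean of the control colons was -0.45 in KO replicate 1 (1.36-fold lower), -1.29 in KO replicate 2 (2.44-fold lower) and -1.65 in WT (3.15-fold lower), while the median of all genes lay within 0.04 of 0 on each array. In limma 10 of the 32 genes fell, which were Acta2, Tpm1, Tpm2, Pcp4, Des, Synm, Itga8, Fhl1, Kcnmb1 and Casq2, and 0 rose. Over all genes 3.43% fell and 7.20% rose. At an unadjusted p under 0.05, 27 of the 32 were lower and 0 higher; over all 19938 genes 26.3% passed in either direction, 1998 genes lower and 16.3% higher. The fitted DSS difference was negative for all 32 genes, with a median of -1.21 against -0.01 over all genes. All 3 DSS arrays lay below both control colons for 27 of the 32 genes, against 18.0% of all genes. The number of genes that fell depended on single arrays. With KO DSS replicate 1 left out it was 28 (1371 over all genes, against 684 with all arrays), with KO DSS replicate 2 left out 4 (260), and with the WT DSS array left out 2 (158). With the WT control colon left out it was 1 (60), with the KO control colon left out 0 (83; 22 members at an unadjusted p under 0.05 in limma), and with either ileum array left out 5 (500). In whole tissue, fewer muscle cells and less RNA per muscle cell cannot be told apart.

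**Figure D1:**
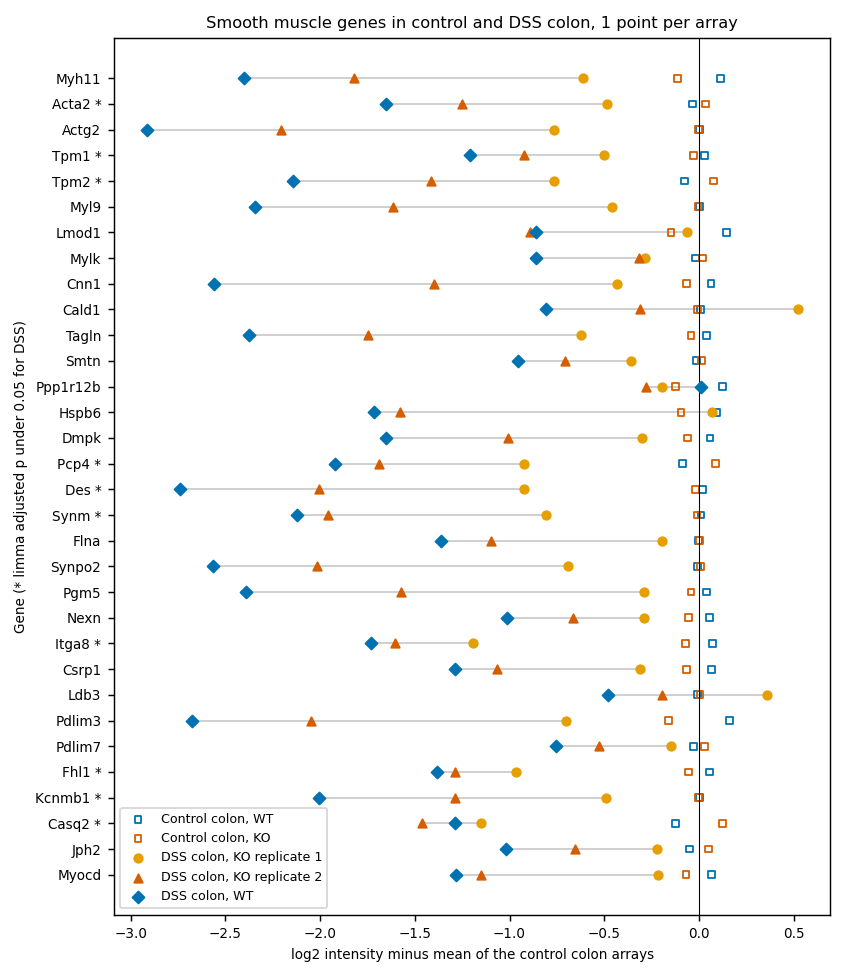
Each row is a gene, and the horizontal axis is its log2 intensity minus the mean of the 2 control colon arrays; open squares are the control colons and filled symbols the 3 DSS arrays. WT DSS lies farthest left for most genes and KO DSS replicate 1 nearest to the controls, and 10 genes carry an asterisk for an adjusted p under 0.05.

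Promoters of 4 members are shown because they hold matches to the CArG box, the element through which many smooth muscle genes are known to be driven; Acta2 and Fhl1 fell with DSS, while Myl9 and Ldb3 did not pass. The CArG box was searched in the 250 bases before and 50 after each RefSeq gene start of GRCm38.p6; the motif is its own reverse complement, so 1 search covers both strands. Of the 32 genes 27 had a promoter sequence. A full CArG box was present in 3 of them (11.1%), Myl9, Fhl1 and Ldb3, against 1.81% of all 27025 genes with a sequence. With 1 G or C allowed among its 6 inner bases, it was present in 9 (33.3%), Acta2, Hspb6, Jph2, Pcp4, Pdlim3 and Synm in addition, against 11.3% of all genes. The looser motif includes the full one. These are matches of letters, counted without a test, and the 250 bases before the start are printed 5′ to 3′ with the matches in capitals.
Acta2, chr19:34255374-34255623, minus strand: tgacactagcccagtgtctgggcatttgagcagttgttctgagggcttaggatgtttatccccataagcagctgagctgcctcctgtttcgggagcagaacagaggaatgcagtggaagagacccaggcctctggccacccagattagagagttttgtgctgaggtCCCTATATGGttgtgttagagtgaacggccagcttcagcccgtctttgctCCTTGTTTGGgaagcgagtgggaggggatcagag
Myl9, chr2:156775214-156775463, plus strand: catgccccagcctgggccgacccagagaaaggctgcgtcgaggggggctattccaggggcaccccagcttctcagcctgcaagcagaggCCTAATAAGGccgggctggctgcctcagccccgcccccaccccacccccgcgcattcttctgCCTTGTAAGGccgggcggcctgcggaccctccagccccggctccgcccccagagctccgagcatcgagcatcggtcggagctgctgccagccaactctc
Fhl1, chrX:56779433-56779682, plus strand: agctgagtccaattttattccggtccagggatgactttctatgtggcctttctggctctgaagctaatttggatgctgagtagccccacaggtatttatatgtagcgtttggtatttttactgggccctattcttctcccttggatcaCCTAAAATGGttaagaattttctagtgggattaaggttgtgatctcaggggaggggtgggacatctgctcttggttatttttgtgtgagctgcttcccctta
Ldb3, chr14:34588608-34588857, minus strand: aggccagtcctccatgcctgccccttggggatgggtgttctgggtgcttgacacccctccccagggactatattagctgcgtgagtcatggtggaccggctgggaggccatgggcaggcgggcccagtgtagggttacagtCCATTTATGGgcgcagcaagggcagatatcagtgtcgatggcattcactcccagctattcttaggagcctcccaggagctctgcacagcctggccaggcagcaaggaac
Acta2 carries 2 matches with 1 inner G or C each, whose first bases lie 84 and 34 bases before the start. Myl9 has a full match 161 bases before its start and a match with 1 inner G or C at 99 bases. The full matches of Fhl1 and Ldb3 begin 102 and 109 bases before the start shown, and each of these genes has a second start in the table, where Ldb3 has the same match at 35 bases and Fhl1 has none.

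The filament genes were among those with the widest differences. Acta2, the smooth muscle alpha-actin, stood at 12.81 in WT and 12.88 in KO control colon, and at 12.36 in KO replicate 1, 11.59 in KO replicate 2 and 11.19 in WT after DSS. The DSS arrays did not overlap the controls, and Acta2 fell (-1.18 ± 0.29, adjusted p = 0.0496 in limma). Actg2, the gamma-actin typical of gut muscle, went from 12.42 in both control colons to 11.66, 10.22 and 9.51 in the same order. This was 1.70-fold, 4.61-fold and 7.55-fold below the control mean, the widest range over the DSS arrays of any member, and the fitted -2.04 ± 0.54 did not pass (adjusted p = 0.0636). The smooth muscle myosin heavy chain Myh11 was at 11.77 and 11.54 in the controls and at 11.04, 9.83 and 9.25 after DSS, again without overlap (-1.67 ± 0.45, adjusted p = 0.0681). Myl9, the regulatory light chain that the kinase phosphorylates, was at 12.12 and 12.11 and then at 11.65, 10.50 and 9.77 (-1.55 ± 0.44, adjusted p = 0.0767). Of the tropomyosins, which lie along the actin filament, both fell, Tpm2 with -1.51 ± 0.33 and Tpm1 with -0.90 ± 0.20 (adjusted p = 0.0355 and 0.0374). Lmod1, a leiomodin that starts new actin filaments, overlapped between groups, with 8.01 and 7.72 in controls and 7.81, 6.98 and 7.01 after DSS. Of these 7 filament genes 3 fell, and their median was -1.51.

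Regulators of the filaments varied more among themselves. Of 9 genes 1 fell, Pcp4, which encodes a small calmodulin-binding peptide, with 9.44 and 9.62 in control colon and 8.60, 7.84 and 7.61 after DSS (-1.56 ± 0.25, adjusted p = 0.0156). The actin-binding calponin Cnn1 was at 12.58 and 12.45 in controls and at 12.09, 11.12 and 9.96 after DSS, a spread of 2.13 between DSS arrays beside a gap of 0.13 between controls. Transgelin, Tagln, a further actin-binding protein of smooth muscle, was at 11.94 and 11.85 and then at 11.27, 10.15 and 9.52 (-1.65 ± 0.43, adjusted p = 0.0603). Neither passed. Mylk, the light chain kinase itself, was at 9.74 and 9.78 in controls and at 9.47, 9.44 and 8.90 after DSS (-0.52 ± 0.17, adjusted p = 0.107). Hspb6, a small heat shock protein phosphorylated in relaxation, was at 10.23 and 10.04 in controls and at 10.20 in KO replicate 1, but at 8.55 in KO replicate 2 and 8.41 in WT after DSS. Caldesmon, Cald1, had its highest value of all 7 arrays in KO DSS replicate 1 (10.23, against 9.72 and 9.70 in controls) and its lowest in WT DSS (8.90, with 9.40 in KO replicate 2). Smoothelin, Smtn (-0.69 ± 0.18), and the kinase Dmpk (-1.04 ± 0.33) had all 3 DSS arrays below the controls and did not pass. Ppp1r12b, a targeting subunit of myosin phosphatase, was the member with the smallest fitted difference (-0.11 ± 0.10). It is covered by 7 probe sets, and they differed. The one used lay -0.20, -0.28 and 0.01 from the control mean in KO replicate 1, KO replicate 2 and WT after DSS, while another with a mean of 8.32 lay -0.29, -0.72 and -0.81 from it.

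Genes for intermediate filaments and for linkage to the membrane had a median of -1.56, and 3 of 7 fell. Desmin, Des, the main intermediate filament of muscle, was at 12.21 and 12.18 in control colon and at 11.27, 10.19 and 9.46 after DSS (-1.97 ± 0.43, adjusted p = 0.0377). Its partner synemin, Synm, was at 9.82 and 9.80 and then at 9.00, 7.85 and 7.69 (-1.67 ± 0.37, adjusted p = 0.0398). Itga8, the alpha 8 integrin subunit, was at 7.89 and 7.75 and then at 6.63, 6.21 and 6.09 (-1.56 ± 0.21, adjusted p = 0.00909). For these 3 genes the DSS array nearest to the controls, KO replicate 1, stood at -0.93, -0.81 and -1.19 from the control mean. The actin-bundling protein gene Synpo2 (-1.82 ± 0.48), Pgm5, a protein of muscle adhesion sites (-1.51 ± 0.48), the actin crosslinker Flna (-0.93 ± 0.30) and the actin-binding Nexn (-0.70 ± 0.18) had no overlap between DSS and control colon and did not pass, with adjusted p from 0.0623 to 0.104.

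Among the LIM and PDZ domain proteins 1 of 5 fell. Fhl1 was at 11.66 and 11.55 in control colon and at 10.64, 10.31 and 10.22 after DSS (-1.24 ± 0.15, adjusted p = 0.00645). Pdlim3 had a larger but more scattered difference, from 10.84 and 10.52 to 9.98, 8.63 and 8.00 (-1.87 ± 0.51, adjusted p = 0.0681). Csrp1 (-0.92 ± 0.27) and Pdlim7 (-0.50 ± 0.18) did not pass, and all their DSS arrays lay below the controls. Ldb3 overlapped, with 7.84 and 7.85 in controls and 8.21, 7.65 and 7.37 after DSS.

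Of the calcium-handling and channel genes 2 of 3 fell. Casq2, the calcium-storing protein of the sarcoplasmic reticulum, was at 6.75 and 7.00 in control colon and at 5.72, 5.41 and 5.58 after DSS (-1.30 ± 0.14, adjusted p = 0.00509). Its DSS values were dim, under the quartile that bounds the lowest genes on each array (5.73 to 5.87), where a fall may be understated. Kcnmb1, the beta subunit of the large-conductance potassium channel in smooth muscle, was at 9.65 and 9.64 and then at 9.16, 8.36 and 7.64 (-1.35 ± 0.33, adjusted p = 0.0495). Jph2, which ties the reticulum to the plasma membrane, stood at -0.66 ± 0.24 and did not pass. Myocd, the gene of the coactivator myocardin, was at 8.14 and 8.00 in control colon, at 7.85 in KO replicate 1, 6.92 in KO replicate 2 and 6.79 in WT after DSS. All 3 were below the controls, and the difference of -0.91 ± 0.30 did not pass (adjusted p = 0.113).

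The DSS arrays followed 1 order for most of the set. From high to low it was KO replicate 1, KO replicate 2 and WT in 29 of 32 genes, against 26.6% of all genes. The range over the 3 DSS arrays had a median of 1.17 over the set and 0.23 over all genes, whereas the control colons differed by a median of 0.09 over the set. KO replicate 1 lay below both control colons in 28 of 32 genes (28.5% of all genes). More than 2-fold below the control mean were 2 genes in KO replicate 1 (1.28% of all genes), 22 in KO replicate 2 (1.91%) and 25 in WT (2.91%), and 0 members were as far above it (2.07%, 2.77% and 3.78% of all genes). Leaving aside Ppp1r12b, whose WT difference was 0.01, the log2 difference of KO replicate 1 had a median of 26.1% of that of WT, and that of KO replicate 2 a median of 75.6%. Itga8, Fhl1 and Casq2, singled out after their values were seen, stood apart, with KO replicate 1 at 68.7%, 69.8% and 89.5% of the WT difference. Casq2 was dim in all 3 DSS arrays, under the lower quartile of each, where differences between these arrays may be understated. In the other 28 genes the share of KO replicate 1 ran from -74.8% to 48.2%, with Pcp4 at the upper end. Below 0 were Ldb3, Cald1 and Hspb6, the 3 genes above the control mean in KO replicate 1.

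**Figure D2:**
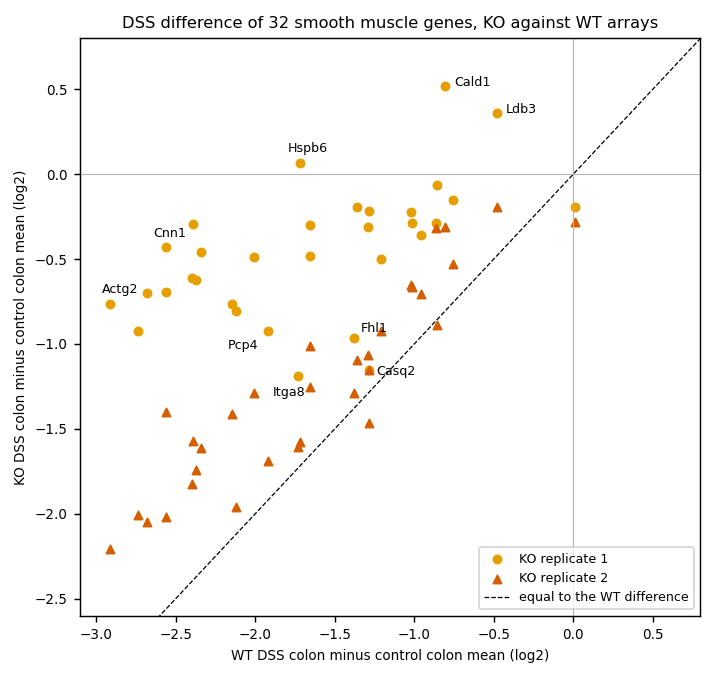
Each gene is plotted by its log2 difference from the control colon mean in WT DSS colon (horizontal) and in KO DSS colon (vertical), with circles for KO replicate 1 and triangles for KO replicate 2. Most triangles lie nearer to the dashed line of equal differences than the circles, and the circles of Itga8, Fhl1 and Casq2 lie closer to it than those of genes with wider WT differences such as Actg2 (-2.92 in WT).

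Other genes of contraction gave a mixed picture. Of 23 measured genes for receptors, kinases, phosphatases, channels and transcription factors that control contraction, 4 fell and 1 rose. Those that fell were the muscarinic receptor Chrm2 (-2.11 ± 0.33), the phosphatase inhibitor Ppp1r14a (-0.95 ± 0.19), the cGMP phosphodiesterase Pde5a (-0.76 ± 0.17) and the myocardin-related factor Mrtfb (-0.63 ± 0.11). The calcium pump gene Atp2a2 rose (0.64 ± 0.10). Mrtfb, Atp2a2 and the next 2 genes were named after their values were seen. Serum response factor, Srf (0.22 ± 0.11), and Mrtfa (0.09 ± 0.12) did not pass. Phospholamban, Pln, showed the gap between DSS arrays most plainly, with 8.09 and 8.13 in control colon, 8.35 in KO replicate 1, 5.79 in KO replicate 2 and 5.45 in WT. The list median was -0.32, though Chrm2 had a wider fitted difference than any of the 32 members. Of 17 genes for muscle adhesion and membrane domains 1 fell, the caveolin Cav1 (-1.63 ± 0.29), while Tns1, a tensin of adhesion sites (-1.48 ± 0.41), and dystrophin, Dmd (-0.96 ± 0.26), did not pass, and the list median was -0.42.

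Markers of neighbouring cell types were read on the same arrays. Of 7 genes of interstitial cells of Cajal, the pacemaker cells of gut muscle, 1 fell, the chloride channel Ano1 (-1.43 ± 0.12). The fitted difference was below 0 for 5 of the 7 and above 0 for 2. Ano1 was at 9.60 to 9.75 in all 3 DSS arrays against 11.24 and 10.99 in control colon, and at 8.27 and 8.10 in control ileum. Kit did not pass (-0.93 ± 0.43) and had another pattern. It was at 9.22 and 9.16 in control colon and at 9.11 and 9.22 in control ileum. After DSS it was at 9.37 in KO replicate 1, 8.11 in KO replicate 2 and 7.55 in WT. None of the 8 mural cell, 8 endothelial, 8 fibroblast or 12 enteric neuron and glia genes passed. The mean log2 level of these 4 lists was highest in KO replicate 1 and lowest in WT among the DSS arrays, as in the muscle set, but in KO replicate 1 it was above the control colons in each (0.49, 0.10, 0.35 and 0.18 above their mean). The summed intensity of the fibroblast list was 6586 and 8101 in control colon and 9315, 6879 and 4940 in the DSS arrays. That of the 8 leukocyte genes went the other way, from 2798 and 3606 to 4787, 5258 and 6055, and 5 of 8 rose, including Fcer1g (1.85 ± 0.36) and Tyrobp (1.43 ± 0.24). The 8 epithelial genes summed to 46635 and 45453 in controls and 47401 to 49089 after DSS, and 1 rose, Krt20 (0.64 ± 0.11). Markers of colon identity moved as well. Of 7 such genes 4 fell, Aqp8 (-0.96 ± 0.16), Slc26a3 (-0.92 ± 0.16) and the position genes Hoxd10 (-2.35 ± 0.31) and Hoxd11 (-1.71 ± 0.26), where Slc26a3 was named after its values were seen. Hoxb13, a gene of the distal colon, was at 11.13 and 11.07 in controls and at 8.59 in KO replicate 1, 10.50 in KO replicate 2 and 10.54 in WT after DSS, and did not pass (-1.15 ± 0.54). The mean of the 7 lay -1.44, -1.17 and -1.02 from the control mean in that order, so it was lowest in KO replicate 1, where the muscle set was highest. The genes of the list did not share this order. Among the DSS arrays Hoxb13, Hoxd10 and Hoxd11 were lowest in KO replicate 1. In the same order Aqp8 (11.14, 10.68 and 11.00) and Slc26a3 (11.61, 11.48 and 12.14) were lowest in KO replicate 2. The part of these cell types, and of the stretch of colon sampled, in the muscle differences was not tested. Skeletal and cardiac muscle genes showed 0 of 12 changed in limma, and their mean level stayed between 6.39 and 6.58 on all 5 colon arrays, with 3 or 4 of the 12 genes below the lower quartile. The fitted difference was below 0 for 10 of the 12 and above 0 for 2. It was widest for Ckm (-0.62 ± 0.23), which did not pass. Ckm was at 8.10 and 7.89 in controls and, after DSS, at 7.78 in KO replicate 1, 7.36 in KO replicate 2 and 7.03 in WT.

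**Figure D3:**
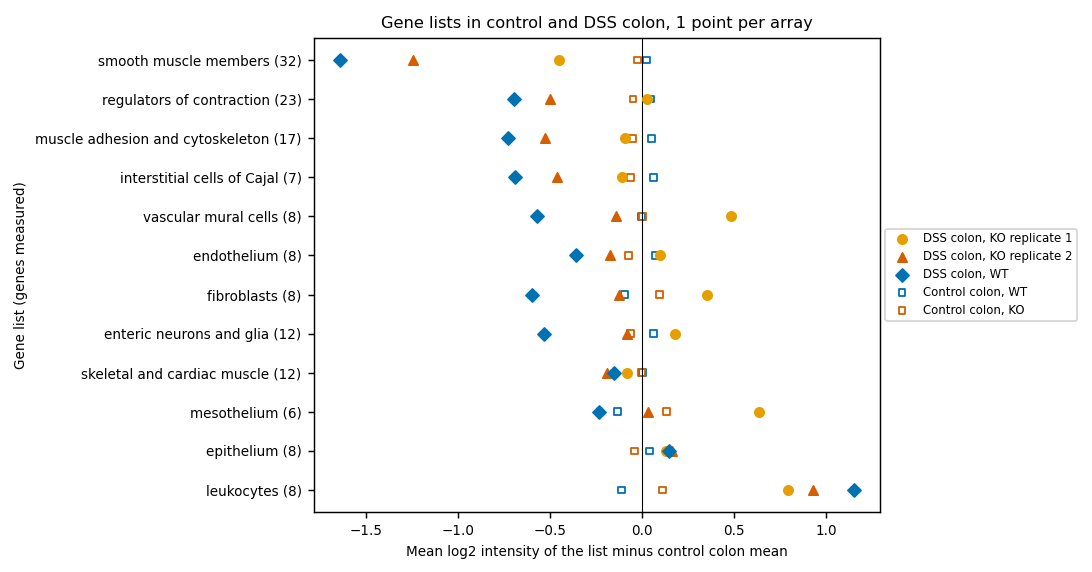
Each row is a gene list with the number of genes measured, and the horizontal axis is its mean log2 intensity minus that of the 2 control colon arrays. The muscle set is lowest in WT DSS colon (-1.64), the leukocyte list is highest there (1.15), and the epithelial list lies between 0.13 and 0.16 in the 3 DSS arrays.

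In untreated mice most smooth muscle genes were lower in ileum than in colon by a small amount. The median difference, ileum minus colon, was -0.29 in WT and -0.33 in KO. Both ileum arrays lay below both colon arrays for 23 of 32 genes (28.2% of all genes) and above them for 3 (25.8%), which were Ldb3, Pcp4 and Mylk. In limma 1 gene was lower and 1 higher in ileum, against 3.22% and 5.94% of all genes. The gene higher in ileum was Ldb3, a PDZ and LIM protein of the Z-disc, at 9.87 in WT and 9.58 in KO ileum against 7.84 and 7.85 in colon (1.88 ± 0.26, adjusted p = 0.00723). The gene lower in ileum was Fhl1, at 10.35 and 10.63 against 11.66 and 11.55 (-1.11 ± 0.16, adjusted p = 0.00842). Pcp4 was at 10.56 and 10.61 in ileum and 9.44 and 9.62 in colon, without overlap, and did not pass (1.05 ± 0.27, adjusted p = 0.0638).

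The fitted tissue difference was above 0 for 6 of 32 genes. Tagln was at 10.95 and 10.77 in ileum (-1.03 ± 0.47), Cnn1 at 11.74 and 11.37 (-0.96 ± 0.56) and Actg2 at 11.73 and 11.32 (-0.90 ± 0.59), each below both colons and none past the threshold. Myh11 (-0.50 ± 0.49), Acta2 (-0.33 ± 0.31) and Myl9 (-0.15 ± 0.48) were closer to their colon values, and Myl9 changed sign without the KO ileum (0.28) and without the WT control colon (0.21). The standard errors are those of the fit over all 7 arrays and hold the scatter of the DSS arrays, so they are wide beside the gap between genotypes within a tissue. Without KO DSS replicate 1, the array nearest to the controls, 3 genes were lower and 2 higher in ileum, and over all genes the calls rose to 909 lower and 1509 higher from 642 and 1184. Ldb3 did not pass without the WT ileum or without either control colon (adjusted p = 0.0563, 0.066 and 0.0977), and Fhl1 did not pass without either ileum or without the WT control colon (0.0569 to 0.0743).

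**Figure D4:**
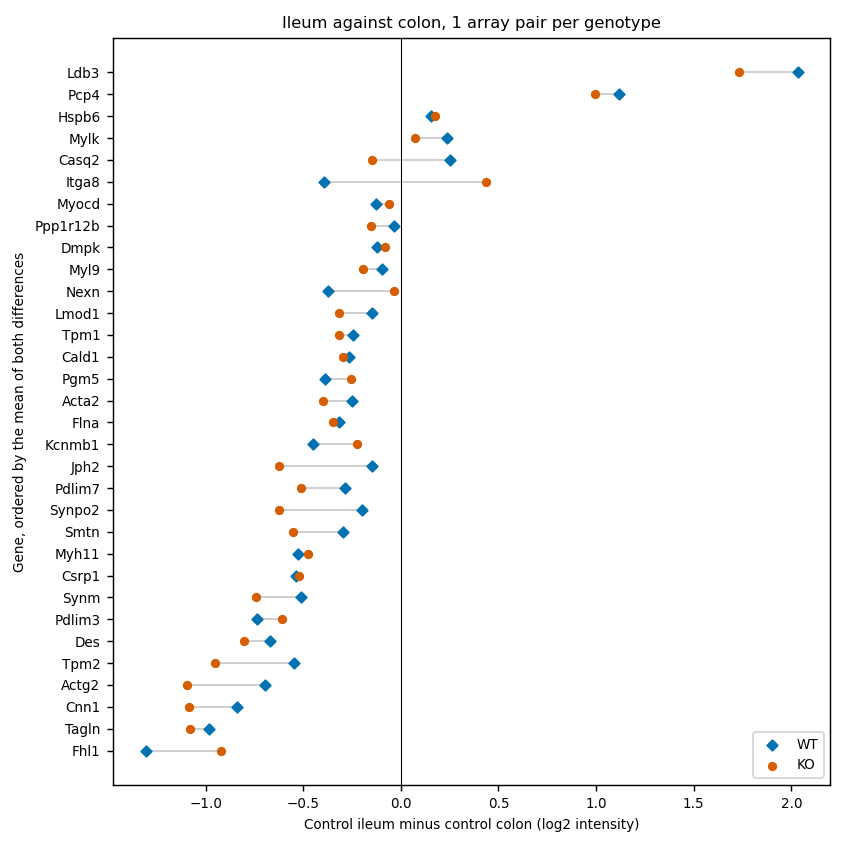
Each row is a gene, and the horizontal axis is the log2 intensity of control ileum minus that of control colon, with a diamond for the WT array pair and a circle for the KO pair. Ldb3 (2.03 and 1.73) and Pcp4 lie to the right, Fhl1 (-1.31 and -0.92) to the left, and Itga8 and Casq2 have opposite signs in WT and KO.

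Loss of Atg4b was not associated with a change of these genes that passed the test. Over ileum, control colon and DSS colon, limma called 0 of 32 genes in either direction between KO and WT (0.00502% of all genes lower and 0.00% higher). At an unadjusted p under 0.05 there was 1 gene, Ppp1r12b (-0.28 ± 0.08, adjusted p = 0.989), against 3.61% of all genes. Its probe sets differed here too. The one with a mean of 8.32 was higher in KO, with 8.95 against 8.30 in ileum and 8.62 against 8.49 in control colon. With the mean of the probe sets of a gene, 0 of 32 genes reached that p in limma. The median KO minus WT difference of the set was -0.16 in ileum, where KO was below WT in 26 of 32 genes (52.7% of all genes), and -0.029 in control colon, where the median of all genes was -0.050. In DSS colon it was 1.17 for KO replicate 1 and 0.36 for KO replicate 2, both above the WT array in 29 of 32 genes, against 34.2% of all genes. Averaged over conditions by the fit the median was 0.29, and it was -0.10 without the WT DSS array. That array is the only one of its group, so without it the fit reads genotype from ileum and control colon alone. The positive value thus comes from KO against WT in DSS colon, and whether the KO or the WT arrays carry it cannot be told.

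The test of whether DSS acted differently in KO and WT called 0 of 32 genes in limma (0.00% of all genes each way). At an unadjusted p under 0.05, 5 genes stood out, all with a higher value in KO, against 3.20% of all genes in either direction and 1.81% with a higher value. These were Cnn1 (1.90 ± 0.49, adjusted p = 1.00), Des (1.38 ± 0.53), Tpm2 (1.10 ± 0.38), Dmpk (1.10 ± 0.38) and Mylk (0.60 ± 0.20). The baseline of the term is KO minus WT in ileum and control colon together. With colon arrays alone, where the spread comes from the KO DSS pair alone, these 5 genes did not reach that p. The spread of the KO pair enters the test over all 7 arrays as well. With 2 residual degrees of freedom that fit did not recover planted differences in simulated data. The absence of calls thus says nothing on whether DSS acted alike in both genotypes. With either KO DSS array left out, the term compares 1 DSS array per genotype, and its spread comes from the untreated arrays alone, to which the DSS arrays are assumed alike. Without KO DSS replicate 2, 15 of 32 genes passed with higher values in KO, and 1.01% of all genes. Without KO DSS replicate 1, 0 of 32 passed in limma (12 with higher values at an unadjusted p under 0.05, against 1.64% of all genes).

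Members differed in how closely they followed the set over all 7 arrays. Likeness was measured as the root mean square distance between centred log2 profiles. These were not scaled, so the distance reflects the size of the differences as well as their order. Actg2, which had the DSS order of most members but a wide range, stood at 0.46. Acta2 was nearest to the mean of the other members (0.04), followed by Dmpk (0.10) and Myocd (0.13), and Ldb3 (0.85), Pcp4 (0.76) and Ppp1r12b (0.60) were farthest. Outside the set, the 10 genes nearest to its mean profile lay at 0.10 to 0.14 over the 7 arrays. They were Rbpms2, an RNA-binding protein, Tgfb1i1, a LIM protein of adhesion sites, Tmem47, Fxyd1, a regulator of the sodium pump, Dmd, the brain-type creatine kinase Ckb, Lims2, Chrdl1, Slc25a23 and Popdc2. Rbpms2 was at 8.31 and 8.46 in control colon and at 8.04, 7.16 and 6.97 in the DSS arrays, in the order used above. Of these 10 genes 1 fell with DSS, Chrdl1, a bone morphogenetic protein antagonist (-1.17 ± 0.20, adjusted p = 0.0204), and the others stood between -1.13 and -0.86 with adjusted p from 0.0579 to 0.148. Arrays share tissue makeup as well as treatment, so likeness in 7 arrays is a description only.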

How the data were processed

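Per the labels' protocols, total RNA was purified on columns and given a biotin label for hybridisation. The authors deposited 1 linear intensity per probe set and array; the sources used here do not state how they summarised and normalized it. Array medians lie close together, so the values were taken as normalized and their log2 was computed here. Of 35512 probe sets 21789 name 1 symbol, 1621 several and 12102 none here. Of the members 30 have 1 probe set.

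Models were fitted with limma 3.58.1 in R 4.3.3 over 19938 genes, with Benjamini-Hochberg adjustment and a threshold of 0.05. The first held genotype and a condition with 3 levels (ileum, colon, colon after DSS) (3 residual degrees of freedom), the second added a genotype by DSS term (2). Single arrays are given as values. The fits were tested on simulated data. The members, gene lists, alternatives and rule for named genes were chosen with earlier results of these data known. The rule names all members, up to 4 genes with the widest DSS difference in each other list, and the 10 genes nearest to the mean profile of the set. Older symbols were updated through RefSeq synonyms, and promoter sequences are RefSeq's, on GRCm38.p6. The array's build is not given, so no coordinates of probe sets are printed. Alternatives were quantile normalization, centring, probe set choice, a filter on dim genes, a variance trend, colon arrays alone, a 6-group model, labelled sex, 16 added before log2, and leaving out each array. Figures were drawn with matplotlib 3.10.9.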

Additional observations from a re-analysis of the deposited data

Results flagged for a closer look

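The median KO minus WT difference of the 32 smooth muscle genes was near 0 in control colon and above 0 in DSS colon. It was -0.029 in control colon, and 1.17 and 0.36 in DSS colon for KO replicates 1 and 2. The median of all genes for the control colon difference was -0.050, so the set lay slightly above the shift of the whole array there. The genotype by DSS term sets KO minus WT in DSS colon against that in ileum and control colon together, not control colon alone. Gene by gene it called 0 of 32 genes in limma (5 at an unadjusted p under 0.05). With colon arrays alone these 5 genes did not reach that p. The term could not resolve differences of this size, and the sign of the median itself was not tested. Itga8 was lower in ileum than in colon in WT (-0.39) and higher in KO (0.44). Casq2 was higher in ileum in WT (0.25) and lower in KO (-0.15). The difference between genotypes was not tested for either gene, and each value rests on 1 array a side.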

How the results depend on the processing

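Every alternative left the median DSS difference of the set negative, from -1.42 to -0.83 over the arrays left out in turn. The number of smooth muscle genes that fell with DSS was 10, among 684 of all genes. With labelled sex as a covariate it was 22 (619 of all genes). Beside genotype and DSS, labelled sex adds the same to the model as the genotype by DSS term. The markers also go against the label in 3 arrays, so that fit is no adjustment for sex. The count was 19 with each array centred on its median (961 of all genes) and 5 with 16 added before log2 (612). It was 5 with colon arrays alone (500), which for DSS is the same fit as leaving out either ileum array. It was 0 with a coefficient for each of the 6 groups (86 of all genes; 27 members at an unadjusted p under 0.05 in limma), which leaves 1 array in most groups, and 0 to 28 over the arrays left out. Casq2 passed in 14 of 16 alternatives, Fhl1 in 14 of 17, Itga8 and Pcp4 in 13 of 17, Tpm2 in 11, Tpm1 in 9, Synm in 8, Des in 7, Kcnmb1 in 6 and Acta2 in 5. These tallies count the fit of colon arrays alone repeatedly, because leaving out either ileum array gives the same DSS result. Apart from the arrays left out, the cause of these shifts was not tested.

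Between ileum and colon, 1 gene was higher, and 2 were with centring, with dim genes left out and with a variance trend (0 to 2 over the arrays left out). The count of lower genes was 1, and 0 with 6 groups (2 at an unadjusted p under 0.05 in limma), and 0 to 3 over the arrays left out. The median of -0.33 became -0.37 with centring and -0.44 with quantile normalization, and -0.59 to -0.10 over the arrays left out. For the genotype by DSS term, whose calls without a KO DSS array rest on 1 DSS array per genotype, 0 to 15 genes were higher over the 6 arrays that could be left out; without the WT DSS array it could not be fitted, nor with labelled sex.

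Among values that did not pass the test some changed sign. For tissue, Itga8 (0.023) became -0.018 with centring and -0.067 with quantile normalization. Over the arrays left out, the tissue difference ran from -0.57 to 0.28 for Myl9, -0.51 to 0.048 for Lmod1, -0.078 to 0.38 for Mylk, -0.17 to 0.50 for Hspb6, -0.43 to 0.23 for Dmpk, -0.97 to 0.14 for Synpo2 and -0.79 to 0.15 for Pgm5. It ran from -0.46 to 0.054 for Nexn, -0.29 to 0.34 for Itga8, -0.70 to 0.034 for Kcnmb1, -0.11 to 0.215 for Casq2 and -0.32 to 0.13 for Myocd. The DSS difference ran from -0.56 to 0.12 for Cald1, -0.34 to 0.15 for Ldb3 and -0.088 to 0.23 for Mrtfa, which became -0.0435 with quantile normalization, and the genotype difference of Pgm5 ran from -0.017 to 0.86. No paired analysis was possible because replicate numbers are given for KO DSS colon alone and no group shares them. The number of arrays limits the precision of every test.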
